A study of Mus musculus with 14 samples.

Results

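Wnt ligands are secreted lipid-modified proteins that bind Frizzled receptors on the surface of neighbouring cells. In the canonical branch, a Frizzled receptor and a co-receptor, Lrp5 or Lrp6, pull the scaffold protein Axin away from the complex that degrades beta-catenin, and beta-catenin then acts in the nucleus with TCF/LEF factors. In the non-canonical branches, ligands such as Wnt5a act through Frizzled and Ror or Ryk receptors on cell polarity and movement. Secreted Frizzled-related proteins (Sfrp) bind the ligands, and Dickkopf proteins (Dkk) bind the co-receptors. In the developing cerebellum, Wnt signalling patterns the early territory and later acts on cell polarity, vessel growth and synapse formation.

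The genes described here were the protein-coding genes whose symbols belong to these families: 19 Wnt ligands, 10 Frizzled receptors (Fzd), 4 Sfrp genes, 4 Dkk genes, the co-receptors Lrp5 and Lrp6, and the scaffolds Axin1 and Axin2. They made up 41 of the 41381 genes in the table, and membership was decided by the symbol. Total RNA had been sequenced from granule neuron progenitors (GNPs), the proliferating precursors of cerebellar granule neurons, isolated on a Percoll gradient from mouse cerebellum at postnatal day 7 (P7). The 14 libraries comprised 5 labelled WT (floxed Chd7 without Atoh1-Cre), 5 labelled Het (Atoh1-Cre::Chd7 f/+) and 4 labelled Hom (Atoh1-Cre::Chd7 f/f). The mice had been bred on C57BL/6N, which the labels give as C57BL/6 or C56Bl6/J, and the sex of the pups was not distinguished. Chd7 encodes a chromatin remodeller, and Atoh1-Cre is active in the granule cell lineage, with probably less efficient recombination in the posterior lobe according to the study. Values were TPM (transcript abundance scaled to a fixed library total), which scale reads by transcript length and library total, so that levels of different genes could be set side by side. The labels do not say whether the libraries of a group came from separate animals or pools, so each p-value measured only the spread between these libraries.

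Sequencing was done in 2 batches. Replicates 1 to 3 of WT and of Het, together with Hom 1 and Hom 2, formed batch 1. The later replicates (WT 4, WT 5, Het 4, Het 5, Hom 3 and Hom 4) formed batch 2. Granule progenitor markers were high in every group, with a summed level over 10 genes of 3362 to 4833 TPM in WT, 3746 to 4042 TPM in Het and 3522 to 3899 TPM in Hom. Chd7 itself went against the labels in batch 1, where it ranged from 121 to 152 TPM in WT and from 172 to 185 TPM in Hom. In batch 2 it ranged from 203 to 272 TPM in WT and from 126 to 150 TPM in Hom. A gene-level TPM covers all exons and does not isolate the deleted part. For this reason WT, Het and Hom below always mean the libraries with that label, and every direction rests on the labels. Each of 12 lists of cell type markers, among them glia, endothelium, meninges and choroid plexus, had a summed level that overlapped between WT and Hom over both batches, but 2 of the lists did not overlap in either batch taken alone. The Purkinje cell sum was lower in every Hom than in every WT library of the same batch, at 33.0 to 43.8 against 138 to 183 TPM in batch 1 and 27.1 to 33.3 against 35.6 to 43.2 TPM in batch 2. In batch 2 this rested mostly on Pcp4, at 12.3 and 14.3 TPM in Hom against 26.6 and 22.8 TPM in WT. There Itpr1 was higher in Hom (10.5 and 12.8 against 8.88 and 9.94 TPM), and Calb1 and Car8 overlapped. The granule neuron sum was also lower in every Hom than in every WT library of the same batch. It was 931 to 932 against 1115 to 1167 TPM in batch 1 and 969 to 1143 against 1268 to 1350 TPM in batch 2. Tubb3 and Map2 made up most of this sum. Tubb3, Rbfox3 and Slc17a7 were lower in Hom in both batches, while Cntn1 overlapped in both and Map2 in batch 1. Gabra6 was lower in batch 1 and, below 0.1 TPM, higher in batch 2. Grin2c went the other way, at 2.21 to 4.89 TPM in Hom against 0.32 to 0.74 TPM in WT. Batch 1 alone also separated Bergmann glia and astrocyte markers (539 to 548 TPM in Hom, 1186 to 1859 TPM in WT). There the endothelial sum was higher in Hom (120 to 376 against 35.4 to 46.6 TPM), but Slco1a4 overlapped. In batch 2 Slco1a4 was lower in Hom. The microglial sum of batch 1 was lower in Hom, and the mural and unipolar brush cell sums were higher. Of the microglial genes only C1qa and C1qb were separated there, and of the unipolar brush cell genes only Eomes. In batch 2 alone the granule progenitor sum was lower in Hom, and the oligodendrocyte and choroid plexus sums were higher. In the progenitor list Gli1, Ccnd2 and Mki67 went the other way, and Atoh1 and Barhl1 overlapped. In the oligodendrocyte list Pdgfra and Mbp overlapped. The choroid plexus sum rested mostly on Otx2, at 131 and 144 TPM in Hom against 68.8 and 106 TPM in WT. There Ttr, Kl and Folr1 overlapped, and Kcnj13 was lower in Hom. The part of these differences in the changes below was not tested. The endothelial level was added to the fit as a further term, but in batch 1 it and the genotype cannot be told apart. In bulk RNA, fewer cells of a type and less RNA per cell cannot be told apart.

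Promoter sequence is shown for genes that the results turn on. The windows came from RefSeq (GRCm38.p6), which gave an upstream window of 250 bases for 26 of the 41 genes, Wnt5a not among them. Wnt4 was one of the 2 ligands higher in Hom, and Ror1 (a Wnt5a receptor) and Wls (the carrier that brings Wnt proteins to the cell surface) were higher with it. Wnt11 is shown because its window held a TCF/LEF motif, CTTTGAT on either strand, which is marked in capitals and reads ATCAAAG on the printed strand. All 4 stretches lie on the plus strand and read toward the gene. The Wnt4 stretch ends after 104 bases, at the annotated start of the gene in GENCODE M21.
Wnt4, chr4:137277385-137277488: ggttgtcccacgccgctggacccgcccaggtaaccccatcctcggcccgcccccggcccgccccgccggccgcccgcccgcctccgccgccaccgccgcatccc
Ror1, chr4:100095541-100095790: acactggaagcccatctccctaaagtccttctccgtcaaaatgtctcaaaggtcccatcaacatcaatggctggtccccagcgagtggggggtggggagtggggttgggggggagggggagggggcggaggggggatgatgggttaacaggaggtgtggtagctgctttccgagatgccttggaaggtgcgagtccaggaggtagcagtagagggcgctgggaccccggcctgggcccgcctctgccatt
Wls, chr3:159839400-159839649: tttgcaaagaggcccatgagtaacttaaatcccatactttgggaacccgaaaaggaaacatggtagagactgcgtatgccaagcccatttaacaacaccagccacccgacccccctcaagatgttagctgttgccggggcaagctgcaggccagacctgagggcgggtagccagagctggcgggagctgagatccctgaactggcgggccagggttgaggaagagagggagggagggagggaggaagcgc
Wnt11, chr7:98834862-98835111: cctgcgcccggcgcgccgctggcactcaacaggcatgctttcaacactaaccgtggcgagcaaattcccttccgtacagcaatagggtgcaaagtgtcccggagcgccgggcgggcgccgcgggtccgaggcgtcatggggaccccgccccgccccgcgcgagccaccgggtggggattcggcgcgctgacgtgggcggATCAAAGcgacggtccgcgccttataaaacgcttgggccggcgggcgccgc

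The upstream windows of these 26 genes, 29 windows in all, were rich in G and C. Their median G+C content was 69.2%, against 52.4% over all 32841 windows of the same length, and that of the full Wnt4 window was 85.2%. The TCF/LEF motif was found in 2 of the 29 windows (6.9%), belonging to Wnt11 and Wnt5b, against 3.21% of all windows. The E-box, CANNTG, a pattern that is its own reverse complement and whose matches cannot overlap those of the other motif, was found in 17 of the 29 (58.6%) against 66.2% of all windows. Neither motif was present in the printed bases of Wnt4, Ror1 or Wls. The full Wnt4 window held 1 E-box, in the bases not printed.

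The family as a whole was led by an antagonist. The summed level of the 41 genes ranged from 509 to 659 TPM (median 572 TPM), and Sfrp1, with a mean of 222 TPM over the 14 libraries, was the most abundant. Axin1 followed at 50.0 TPM. The next genes in order of mean level were Fzd2 at 43.0 TPM, Fzd7 at 42.9 TPM, Fzd3 at 35.9 TPM, Lrp6 at 31.2 TPM and Axin2 at 26.6 TPM. The ranges of Fzd2, Fzd7 and Fzd3 overlapped widely, so their order was not resolved beyond the spread. Ligands were scarcer than receptors: the summed level of the 19 Wnt genes was 25.7 to 45.8 TPM, that of the 10 Frizzled genes 140 to 181 TPM. Wnt5a, with a mean of 15.8 TPM, was the only ligand with a mean of at least 10 TPM. Wnt7b at 3.27 TPM, Wnt4 at 2.98 TPM and Wnt3 at 2.67 TPM came next, and their order depended on genotype. In WT the means were 3.33 TPM for Wnt7b, 3.04 TPM for Wnt3 and 1.97 TPM for Wnt4, and in Hom they were 2.99, 2.28 and 4.54 TPM.

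Of the 41 genes, 27 reached 1 TPM or more in 4 or more libraries and were tested. They were all 10 Frizzled genes, both co-receptors, both Axin genes, 9 ligands, Sfrp1, Sfrp2, Sfrp4 and Dkk3. The 14 others were Wnt1, Wnt2, Wnt3a, Wnt6, Wnt8a, Wnt8b, Wnt9b, Wnt10a, Wnt10b, Wnt16, Dkk1, Dkk2, Dkk4 and Sfrp5. Of these, 12 stayed below 1 TPM in every library. None of the 41 was listed at 0 in all libraries. Wnt1 and Wnt3a, ligands known for patterning the early neural tube, had means of 0.0057 and 0.010 TPM. TPM keeps no record of read numbers, so the depth behind such low values is unknown.

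**Figure D1:**
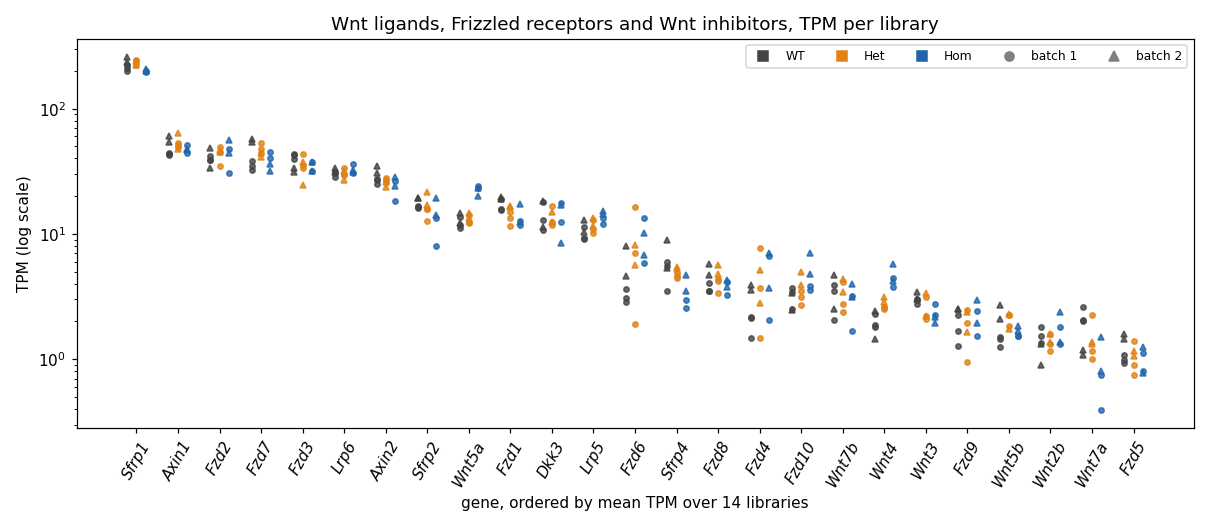
TPM of the 25 genes with a mean of at least 1 TPM in each of the 14 libraries, on a log axis, ordered by mean level, coloured by genotype label, with circles for batch 1 and triangles for batch 2. Sfrp1 lies above all others, and Wnt5a, with a mean of 15.8 TPM, is the ligand farthest to the left.

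Differences between genotypes were estimated with limma on log2(TPM + 1), with genotype and sequencing batch as terms, over all 17325 genes that passed the same filter. A log2 change below refers to that scale, which understates the change of low genes. Benjamini-Hochberg adjustment was made over all these genes, and "called" means an adjusted p under 0.05.

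In Hom against WT, 2 of the 27 tested genes were called, and both were higher in Hom. They were the ligands Wnt5a and Wnt4. Over all genes tested, 1.27% were called higher and 1.41% lower. No gene of the families was called lower in the limma fit, where 6 had an unadjusted p under 0.05 in that direction and 4 in the other (6.42% and 8.51% of all genes). A rank test of the 3 genotypes (exact Kruskal-Wallis, batch term removed, unadjusted p under 0.01) passed 4 of the 27 against 4.65% of all genes: Wnt5a and Wnt4, higher in Hom, and Sfrp1 and Fzd1, lower in Hom. The batch term had been fitted with genotype kept, and the rank test then ignored batch, so its p-values are only approximate. In the limma fit the log2 change was below 0 for 16 genes and above 0 for 11. The median was -0.08, against 0.02 over all genes.

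Wnt5a (ENSMUSG00000021994, chr14:28504750-28527448, plus strand, GRCm38) encodes the ligand best known for the non-canonical branch. Its TPM was 11.8, 13.7, 11.1, 14.7 and 12.2 in WT 1 to 5. It was 12.2, 14.2, 12.5, 13.5 and 14.8 in Het 1 to 5. The Hom 1 to 4 values were 23.1, 24.1, 20.1 and 23.1. Every Hom library lay above every WT and Het library, while WT and Het overlapped. Of all genes tested, 2.91% had every Hom library above every WT library, as had Wnt5a and Wnt4 of the 27. The means were 12.7 ± 1.46 TPM (SD, n = 5) in WT, 13.4 ± 1.10 TPM (n = 5) in Het and 22.6 ± 1.71 TPM (n = 4) in Hom. The log2 change in Hom against WT was 0.78 ± 0.10 (SE), with a limma adjusted p of 6.26e-04. This is a fold of 1.72 in TPM + 1. The change in Hom against Het was 0.71 ± 0.10 (limma adjusted p = 0.00615), the only call among the 27 genes in that contrast (0.15% of all genes were called higher and 0.277% lower). There 2 genes were higher and 3 lower at an unadjusted limma p under 0.05, against 3.05% and 3.13% of all genes. In Het against WT it was 0.08 ± 0.09 (limma adjusted p = 0.924). Within batch 1 the Hom change was 0.90 (limma adjusted p = 0.0224), and within batch 2, with 2 Hom and 2 WT libraries, it was 0.65 (limma adjusted p = 0.215).

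Because Wnt5a was the most abundant ligand, the summed ligand level moved with it. The sum over the 19 Wnt genes was 29.2 ± 3.56 TPM in WT, 30.0 ± 2.76 TPM in Het and 40.0 ± 4.26 TPM in Hom. Without Wnt5a the sums were 16.5 ± 2.16, 16.6 ± 1.90 and 17.4 ± 3.52 TPM, and the groups overlapped. Wnt5a made up 43.5% ± 1.29 of the ligand sum in WT, 44.8% ± 1.99 in Het and 56.8% ± 4.51 in Hom.

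Wnt4 (ENSMUSG00000036856, chr4:137277489-137299726, plus strand), a ligand that can act in both branches depending on the cell, was the other called gene. Its TPM was 2.31, 1.88, 1.80, 2.43 and 1.44 in WT 1 to 5. The Het 1 to 5 values were 2.61, 2.60, 2.51, 2.84 and 3.12, those of Hom 1 to 4 were 4.42, 3.79, 4.24 and 5.72. The 3 genotypes did not overlap and lay in the order WT, Het, Hom, an order without overlap that 10 genes (0.0577% of all genes tested) showed. The means were 1.97 ± 0.402, 2.74 ± 0.247 and 4.54 ± 0.829 TPM. The log2 change in Hom against WT was 0.89 ± 0.14 (SE), with a limma adjusted p of 0.00380. This is a fold of 1.85 in TPM + 1, not in TPM. With 0.1 added to TPM in place of 1, the log2 change was 1.16. Het against WT gave 0.34 ± 0.13, with an unadjusted limma p of 0.0242 and an adjusted p of 0.727, and Hom against Het gave 0.55 ± 0.14 (limma adjusted p = 0.161). Within batch 1 the Hom change was 0.77, and within batch 2 it was 1.04, neither of which was called on its own (limma adjusted p = 0.112 and 0.219).

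The calls of Wnt5a and Wnt4 in Hom against WT held when each of the 14 libraries was left out in turn. With the endothelial marker level as a further term, an alternative added after the data were seen, the Wnt5a change was 0.69 (limma adjusted p = 0.00482) and the Wnt4 change 0.90 (limma adjusted p = 0.0159).

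**Figure D2:**
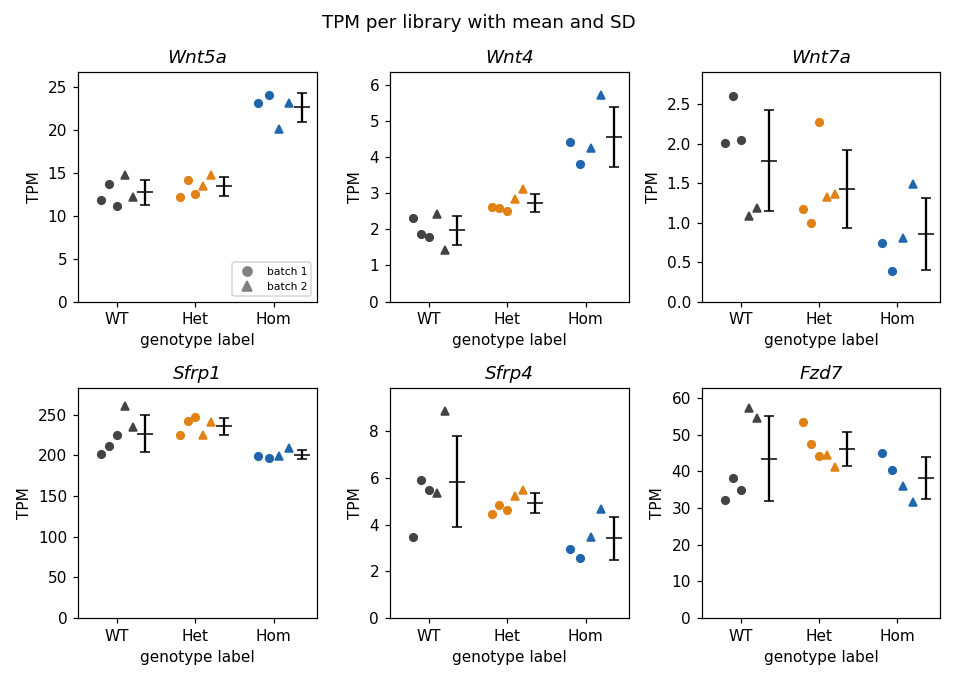
TPM of Wnt5a, Wnt4, Wnt7a, Sfrp1, Sfrp4 and Fzd7 in each library by genotype label, with circles for batch 1, triangles for batch 2 and bars for the mean and SD. All 4 Hom libraries lie above the others for Wnt5a and Wnt4, and below every Het library for Sfrp1.

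The other 7 tested ligands were not called. Wnt7b was 3.49, 3.91, 2.05, 4.72 and 2.50 TPM in WT 1 to 5. It was 2.37, 4.15, 2.76, 4.40 and 3.45 TPM in Het and 1.67, 3.18, 3.14 and 3.96 TPM in Hom. The groups overlapped throughout, and the log2 change in Hom was -0.15 (limma adjusted p = 0.820). Wnt7a (chr6:91363981-91411363, minus strand), a ligand that granule neurons use in synapse formation and that also acts on brain endothelium, was named after its values were seen. In batch 1 it was 2.01, 2.61 and 2.05 TPM in WT, 1.17, 1.0 and 2.27 TPM in Het and 0.74 and 0.39 TPM in Hom. In batch 2 it was 1.08 and 1.19 TPM in WT, 1.33 and 1.36 TPM in Het and 0.81 and 1.49 TPM in Hom. The 4 highest libraries (WT 1, WT 2, WT 3 and Het 3) were also the 4 highest for Purkinje cell markers and for Bergmann glia and astrocyte markers, and the 4 lowest for endothelial markers. The part of these cells in the Wnt7a values was not tested. Its Hom change was -1.05 within batch 1 and -0.01 within batch 2, and -0.58 over both (limma adjusted p = 0.247). Wnt3, also named after its values were seen, had every Hom library (1.96 to 2.76 TPM) below every WT library (2.77 to 3.44 TPM), as did 1.96% of all genes. The gap between the nearest libraries was 0.01 TPM, and the log2 change was -0.30 (limma adjusted p = 0.356).

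The Sfrp genes were described by the 3 that were tested. None was called, and all 3 had a Hom change below 0 with an unadjusted limma p under 0.05, both against WT and against Het. Of all genes, 6.42% had one against WT and 3.13% against Het. Their summed level, Sfrp5 included, was 250 ± 25.2 TPM in WT, 257 ± 11.2 TPM in Het and 219 ± 11.5 TPM in Hom. Sfrp1 made up most of this sum, with means of 226 TPM in WT, 236 TPM in Het and 201 TPM in Hom. The order of the sum therefore largely repeats that of Sfrp1 below. In the sum every Hom library was below every WT library of its own batch (207.6 to 216 against 221 to 247 TPM in batch 1, 217 to 235 against 263 to 285 TPM in batch 2). Over both batches, every Hom library (207.6 to 235 TPM) was below every Het library (245 to 269 TPM).

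Sfrp1 (ENSMUSG00000031548, chr8:23411502-23449632, plus strand) measured 201.5, 211, 225, 261 and 234 TPM in WT 1 to 5. It was 224, 242, 247, 224 and 241 TPM in Het 1 to 5, and 199, 196, 199 and 209 TPM in Hom 1 to 4. All Hom libraries lay below all Het libraries, as in 1.06% of all genes. They lay below all WT libraries of their own batch, and only WT 1 was below the highest Hom library. The change was -0.18 ± 0.06 in Hom against WT (limma adjusted p = 0.200) and -0.24 ± 0.06 in Hom against Het (limma adjusted p = 0.184). Sfrp2 (ENSMUSG00000027996, chr3:83766321-83774316, plus strand) was 16.0, 16.6, 16.3, 19.3 and 19.4 TPM in WT 1 to 5 and 15.8, 12.6, 15.8, 16.9 and 21.4 TPM in Het 1 to 5. In Hom 1 to 4 it was 13.3, 8.03, 14.1 and 19.3 TPM. The groups overlapped, with Hom 2 lowest, and the change in Hom against WT was -0.43 ± 0.15 (limma adjusted p = 0.179).

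Sfrp4 (ENSMUSG00000021319, chr13:19623104-19632994, plus strand), named after its values were seen, was closest to a call in the lower direction. It was 3.48, 5.93, 5.50, 5.35 and 8.89 TPM in WT 1 to 5 and 4.45 to 5.47 TPM in Het. In Hom 1 to 4 it was 2.94, 2.57, 3.47 and 4.67 TPM. In each batch, every Hom library lay below every WT library. This order held in both batches for 4 of the 27 genes (Sfrp1, Sfrp4, Fzd1 and Wnt3), against 3.56% of all genes, and the opposite order for 3 (Wnt5a, Wnt4 and Lrp5), against 5.44%. The change was -0.64 ± 0.17 (limma adjusted p = 0.0610), with -0.65 within batch 1 and -0.65 within batch 2. After median-ratio scaling or quantile normalization it was called, at -0.66 and -0.69 (limma adjusted p = 0.0393 and 0.0306), and without WT 1 it was called at -0.75 (limma adjusted p = 0.0252). Sfrp5, below the filter and named after its values were seen, ranged from 0 to 0.22 TPM in WT, from 0.07 to 1.32 TPM in Het and from 0.52 to 1.96 TPM in Hom. With genes kept at a TPM above 0 in at least 4 libraries, its Hom change was 0.70 ± 0.20 (limma adjusted p = 0.135), opposite in sign to those of Sfrp1, Sfrp2 and Sfrp4.

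Among the Dickkopf genes, Dkk3, a divergent family member, was the only one tested. It ranged from 10.7 to 18.2 TPM in WT (median 12.8), from 11.7 to 16.8 TPM in Het (median 12.5) and from 8.42 to 17.7 TPM in Hom, with a log2 change in Hom of -0.04 ± 0.22 (limma adjusted p = 0.957). Hom 1 to 4 were at 12.5, 17.7, 8.42 and 16.9 TPM, with an SD of 4.30 TPM, against 3.59 TPM in WT and 2.11 TPM in Het. Dkk2 stayed between 0.12 and 0.97 TPM, and Dkk1 and Dkk4 did not exceed 0.17 TPM.

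**Figure D3:**
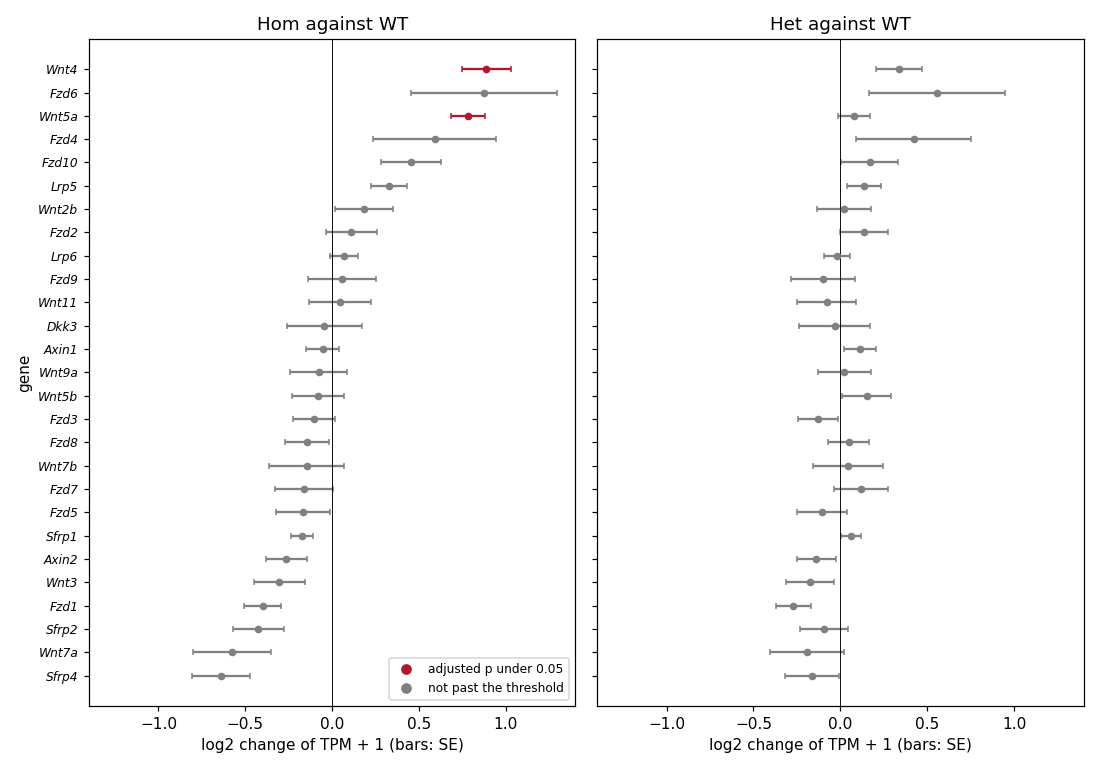
Log2 change, with its SE, of the 27 tested genes in Hom against WT and in Het against WT, with called changes in red. Wnt5a and Wnt4 are called in Hom, at 0.78 and 0.89, and no gene is called in Het.

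The Frizzled receptors did not move together. None of the 10 was called in Hom against WT, 1 had an unadjusted limma p under 0.05 in each direction, and 5 changes were below 0 and 5 above. Their summed level was 157 ± 15.5 TPM in WT, 163 ± 5.55 TPM in Het and 157 ± 5.47 TPM in Hom. Fzd2 (ENSMUSG00000050288, chr11:102604396-102608058, plus strand) was 38.8, 39.1, 41.6, 48.1 and 33.9 TPM in WT 1 to 5. It was 45.3, 35.1, 49.5, 47.1 and 45.0 TPM in Het 1 to 5 and 47.8, 30.6, 56.1 and 44.6 TPM in Hom 1 to 4. Both the lowest and the highest value were in Hom libraries, and the Hom change was 0.11 (limma adjusted p = 0.798).

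Fzd7 (ENSMUSG00000041075, chr1:59482424-59486955, plus strand) measured higher in Hom than in WT in batch 1 and lower in batch 2, a difference between batches that was not called. In batch 1 it was 32.2, 38.3 and 35.0 TPM in WT, 53.5, 47.4 and 44.1 TPM in Het, and 45.1 and 40.2 TPM in Hom. In batch 2 it was 57.3 and 54.5 TPM in WT, 44.4 and 41.3 TPM in Het, and 35.9 and 31.6 TPM in Hom. All WT libraries were below all Het and Hom libraries in batch 1, and above all of them in batch 2. The share of all genes with such an order, in groups of 2 or 3 libraries, was not counted. The Hom change was 0.27 within batch 1 and -0.71 within batch 2, and the pooled value of -0.16 (limma adjusted p = 0.716) lay between them. The difference between the batches, tested as an interaction, was -0.99 ± 0.16, with an unadjusted limma p of 6.26e-05 and an adjusted p of 0.127. For the Het change it was -0.82 ± 0.15, with an unadjusted limma p of 1.96e-04 and an adjusted p of 0.445. Of the 27 genes, 0 had a called interaction for Hom and 3 an unadjusted limma p under 0.05 (Fzd7, Wnt7a and Axin1), against 0.0115% and 17.2% of all genes. For Het the counts were 0 and 2, against 0.00577% and 9.3%. Chd7, the targeted gene, also lay on opposite sides in the batches. Its Hom change was 0.41 within batch 1 and -0.77 within batch 2, and its part in the Fzd7 values was not tested.

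Fzd1 (ENSMUSG00000044674, chr5:4753839-4758035, minus strand), named after its values were seen, was 15.4, 18.9, 15.9, 19.8 and 18.9 TPM in WT 1 to 5. It was 11.6, 13.3, 15, 16.3 and 16.7 TPM in Het 1 to 5 and 12.7, 11.7, 12.4 and 17.4 TPM in Hom 1 to 4. Within each batch every Het and Hom library was below every WT library, and the Hom change was -0.42 in batch 1 and -0.37 in batch 2. Of all genes, 3.56% had this order for Hom in both batches, and the share with Het included was not counted. Over both batches it was -0.40 ± 0.11 (limma adjusted p = 0.0708). It was called after median-ratio scaling (-0.43, limma adjusted p = 0.0412) and quantile normalization (-0.43, limma adjusted p = 0.0416), and without Hom 4 (-0.48, limma adjusted p = 0.0422). The Het change was -0.27 ± 0.10, with an unadjusted limma p of 0.0179 and an adjusted p of 0.674. Fzd10, also named after its values were seen, was 2.48 to 3.70 TPM in WT, 2.71 to 4.97 TPM in Het and 3.59 to 7.07 TPM in Hom. Its change of 0.46 ± 0.17 was not called (limma adjusted p = 0.231).

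Fzd4 and Fzd6 varied with endothelial markers. Fzd4 is a receptor through which Norrin acts on brain vessels, and Fzd6 belongs to the polarity branch. Both were named after their values were seen. The summed level of 8 endothelial genes ranged from 35.4 to 231 TPM in WT, from 23.7 to 499.9 TPM in Het and from 120 to 376 TPM in Hom, and none of the 8 was at 0 in all libraries. Fzd4 was 1.47 to 3.89 TPM in WT (median 2.17), 1.48 to 7.66 TPM in Het (median 3.68) and 2.05 to 7.08 TPM in Hom. Fzd6 was 2.88 to 7.96 TPM in WT (median 3.65), 1.91 to 16.4 TPM in Het (median 7.09) and 5.85 to 13.4 TPM in Hom. Het 2, with the highest endothelial level, also had the highest Fzd4 and Fzd6. The 5 libraries with the highest endothelial level were the 5 highest for Fzd4 and the 5 highest for Fzd6. The 5 lowest were the 5 lowest for Fzd4, and 4 of the 5 lowest for Fzd6. Among the 4 highest and 4 lowest, all were shared with both receptors but for 1 of the 4 lowest for Fzd4. In Hom against WT the changes were 0.59 ± 0.35 for Fzd4 and 0.88 ± 0.42 for Fzd6 (limma adjusted p = 0.478 and 0.353). With the endothelial level as a further term they were -0.12 and -0.06 (limma adjusted p = 0.831 and 0.840).

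**Figure D4:**
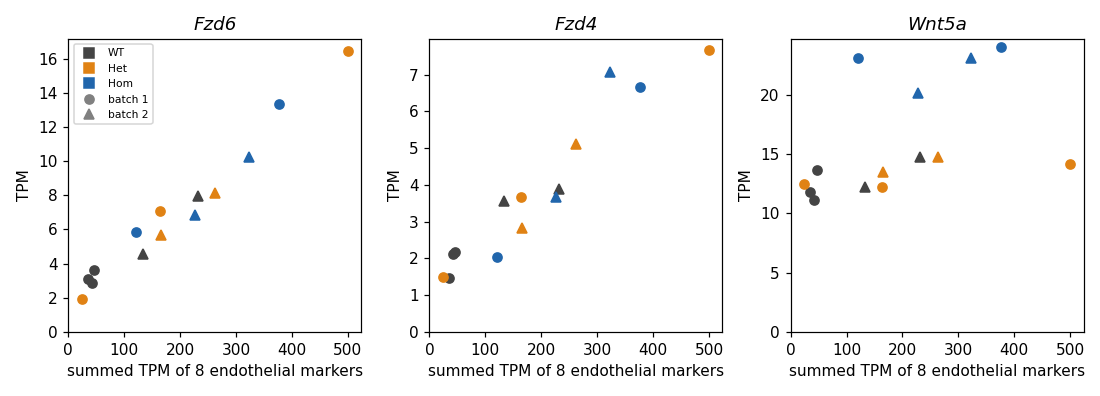
TPM of Fzd6, Fzd4 and Wnt5a in each library against the summed TPM of 8 endothelial markers, by genotype label. Fzd6 and Fzd4 are highest in the 5 libraries with the highest endothelial level, while Wnt5a separates the 4 Hom libraries, at 20.1 to 24.1 TPM, from all others.

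None of the co-receptors and scaffolds was called in Hom against WT. Lrp6 was 28.2, 31.2, 30.4, 31.2 and 33.4 TPM in WT 1 to 5. It was 30.1, 33.9, 29.7, 26.8 and 32.1 TPM in Het and 30.5, 35.9, 31.1 and 32.2 TPM in Hom, with overlapping groups and a Hom change of 0.07 ± 0.08 (limma adjusted p = 0.757). Lrp5, named after its values were seen, was 9.12 to 13.0 TPM in WT and 11.9 to 15.2 TPM in Hom. Its change was 0.33 ± 0.10, with 0.32 within batch 1 and 0.32 within batch 2, and was not called (limma adjusted p = 0.140).

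Axin1 (ENSMUSG00000024182, chr17:26138688-26195811, plus strand), the constitutive scaffold of the degradation complex, was 44.4, 42.9, 43.5, 60.3 and 54.5 TPM in WT 1 to 5. It was 49.7, 53.1, 51.2, 63.6 and 47.2 TPM in Het and 44.1, 51.1, 47.6 and 46.8 TPM in Hom. The WT libraries of batch 2 were higher than those of batch 1, and the Hom change was 0.12 within batch 1, -0.28 within batch 2 and -0.06 over both (limma adjusted p = 0.856). Axin2, a scaffold that is itself a widely used target of canonical signalling, was named after its values were seen. It ranged from 24.8 to 35.1 TPM in WT (median 27.3), from 23.7 to 28.0 TPM in Het (median 26.1) and from 18.2 to 28.5 TPM in Hom. The groups overlapped, and the Hom change of -0.26 ± 0.12 was not called (limma adjusted p = 0.314).

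In Het against WT, no gene of the families was called by limma in either direction, as 0% and 0.00577% of all genes were called lower and higher. The unadjusted p was under 0.05 for 1 gene lower (Fzd1) and 1 higher (Wnt4), against 2.88% and 3.2% of all genes. Wnt4 was the only one of the 27 whose Het libraries all lay above the WT libraries, which held for 0.462% of all genes. The Het and Hom comparisons used the same WT libraries, so their values are not independent of each other.

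Differences between the sequencing batches ran mostly one way. In batch 2 against batch 1, 22 of the 27 genes were higher, with a median log2 difference of 0.16 against 0.02 over all genes. Only Sfrp2 was called, at 0.39 ± 0.12 (limma adjusted p = 0.0448), where 7.88% of all genes were called higher and 5.61% lower. Its mean was 14.3 ± 2.92 TPM in the 8 libraries of batch 1 and 18.4 ± 2.56 TPM in the 6 of batch 2. With 1 library left out the difference ranged from 0.29 to 0.44, and it was called only without Het 4 or without Hom 1.

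To place these genes in the pathway, 69 other Wnt pathway genes were examined in the same fit, of which 61 were tested. In Hom against WT, 0 were called lower and 4 higher (1.41% and 1.27% of all genes), with 4 and 10 at an unadjusted limma p under 0.05 (6.42% and 8.51% of all genes). The rank test passed 0 lower and 6 higher, against 4.65% of all genes in either direction. The median change of the 61 was 0.02, equal to that of all genes. The 4 called genes were 1 each of the 16 tested secretion and extracellular genes (Wls), the 24 intracellular transducers and nuclear factors (Lef1), the 13 non-canonical receptors and polarity genes (Ror1) and the 8 target genes (Ccnd1).

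Ror1, a receptor for Wnt5a, was 10.6, 11.9, 11.2, 14.8 and 14.4 TPM in WT 1 to 5. It was 19.8, 13.3, 18.5, 16.5 and 16.5 TPM in Het and 22.2, 22.6, 19.1 and 18.7 TPM in Hom. Every Hom library was above every WT library, as in 2.91% of all genes, and Het lay between or overlapped. Ror1, Wls, Ccnd1 and Lef1 were picked as called higher in Hom, so this order partly restates how they were chosen. The change was 0.67 ± 0.13 (limma adjusted p = 0.0124), and without Hom 1 it was 0.63 (limma adjusted p = 0.0564). Wls, the Wnt carrier, was 32.5, 31.3, 32.1, 32.1 and 23.3 TPM in WT 1 to 5. It was 42.5, 36.6, 35.7, 36.2 and 39.9 TPM in Het and 41.4, 47.8, 36.8 and 57.3 TPM in Hom. All Het and Hom libraries were above all WT libraries. Of all genes, 2.91% had every Hom library, and 0.462% every Het library, above every WT library. The Hom change was 0.58 ± 0.13 (limma adjusted p = 0.0261), and leaving out WT 2, WT 3, WT 5, Hom 2 or Hom 4 ended the call, with the change at 0.59, 0.60, 0.48, 0.56 and 0.45.

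Ccnd1 encodes cyclin D1, which drives entry into the cell cycle, is a described target of beta-catenin and is also driven by Sonic hedgehog in GNPs. It was 82.0, 91.9, 79.7, 104 and 114 TPM in WT 1 to 5. It was 123, 109, 132, 123 and 133 TPM in Het and 155, 151, 166 and 192 TPM in Hom. Every Hom library was above every Het and WT library, and only Het 2 was within the WT range. Of all genes, 2.91% had every Hom library above every WT library, and the share above every Het library was not counted. The Hom change was 0.80 ± 0.08 (limma adjusted p = 1.11e-04), and the Het change of 0.40 was not called (limma adjusted p = 0.149).

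Lef1, a nuclear partner of beta-catenin, was low and varied with the endothelial markers. It was 0.32, 0.68, 0.71, 1.65 and 2.70 TPM in WT 1 to 5, 1.36 to 4.95 TPM in Het, and 3.54, 5.43, 3.61 and 5.89 TPM in Hom. The 4 libraries with the highest endothelial level were the 4 highest for Lef1, and the 4 lowest were the 4 lowest. Of the 5 highest and the 5 lowest, 4 each were shared. The Hom change was 1.38 ± 0.31 (limma adjusted p = 0.0292), and 0.84 with the endothelial level as a further term (limma adjusted p = 0.107). It was not called without WT 1, WT 2, WT 3, WT 4, Hom 1, Hom 2 or Hom 4, with the change between 1.21 and 1.41. With that term Wls was also not called (0.53, limma adjusted p = 0.102), while Ror1 (0.70, limma adjusted p = 0.0395) and Ccnd1 (0.83, limma adjusted p = 5.55e-04) were. Tcf7 and Apcdd1, named after their values were seen, shared with the endothelial list their 5 highest libraries, and 5 and 4 of their 5 lowest. Of the 4 highest libraries each shared 3, and of the 4 lowest 4.

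**Figure D5:**
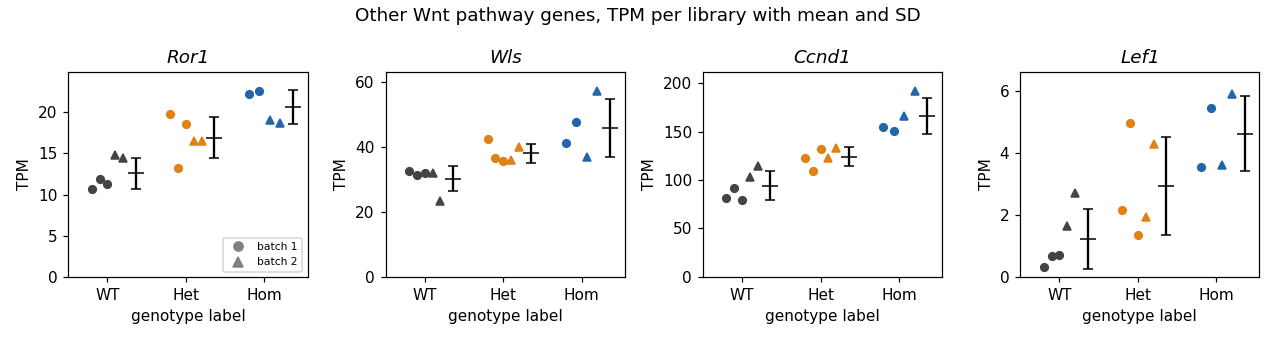
TPM of Ror1, Wls, Ccnd1 and Lef1 in each library by genotype label, with circles for batch 1, triangles for batch 2 and bars for the mean and SD. All 4 Hom libraries lie above all 5 WT libraries for each gene, from 18.7 TPM for Ror1, 36.8 TPM for Wls, 151 TPM for Ccnd1 and 3.54 TPM for Lef1. The genes were picked as called higher in Hom, and 2.91% of all genes had this order.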

How the data were processed

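Total RNA was sequenced from GNPs of P7 mice in 14 libraries as single-end reads. The authors mapped them to the mm10 transcriptome with Bowtie 1.0.0 and deposited gene-level TPM values estimated with RSEM 1.2.15, per the labels and the study's methods. Columns sum to between 999999.14 and 1000000.79, so no counts or depths could be recovered and no counting intervals are given. TPM is a share of a fixed total, so abundant genes shift all others.

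Control columns (Con) were matched to WT by their number. Batches were taken from the study's methods. Het 3 has the label style of the later deposit and was also tried in batch 2. Symbols and positions came from GENCODE M21 (GRCm38), which held 40340 of the 41381 genes, and promoters from RefSeq. The 17325 genes that reached 1 TPM in 4 or more libraries were analysed as log2(TPM + 1) with limma 3.58.1 (lmFit, eBayes with trend) in R 4.3.3, with genotype and batch as terms. P-values were two-sided with Benjamini-Hochberg adjustment over all genes tested, and the script was tested on simulated data. The study corrected batches with ComBat, which was not run here, and used a rank test. An exact Kruskal-Wallis test over 252252 arrangements after removal of the batch term was an alternative. Its arrangements ignored batch, so its p-values are approximate for the batch-removed values.

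Membership followed from gene symbols, but the families and lists were chosen with earlier results of these data known. Values per library are given for genes called in any contrast, the 2 most abundant of each family (co-receptors and scaffolds as 1 family) except where a range sufficed, and called pathway genes. Other named genes are marked as chosen after their values were seen. Alternatives were a pseudocount of 0.1 or 0.5, median-ratio scaling, quantile normalization, a filter of TPM above 0 or mean TPM of 5 or more, no batch term, each batch alone, a replicate block, fits of only the genotypes compared, and leaving out each library. The endothelial term was added after the data were seen. Replicate numbers were checked for pairing by the correlation of residuals: 13 same-numbered pairs gave -0.235 to 0.264 (median -0.0569), so the numbers were not taken to pair the samples.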

Additional observations from a re-analysis of the deposited data

Results flagged for a closer look

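One value stood apart within its group. Wls was 23.3 TPM in WT 5, while the other 4 WT libraries lay between 31.3 and 32.5 TPM, so that the gap to the nearest library was most of the range of the group. About 1 in 20 groups passes this test by chance. Without WT 5 the Hom change of Wls was 0.48 on the log2 scale (limma adjusted p = 0.0567), against 0.58 with it.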

How the results depend on the processing

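Wnt5a and Wnt4 kept their direction in Hom against WT under all alternatives in which they were tested. Without each library in turn the change ranged from 0.74 to 0.85 for Wnt5a and from 0.78 to 0.95 for Wnt4, and from 0.66 to 0.77 for Wnt5a in Hom against Het. Calls were lost within single batches, which hold fewer samples. Wnt5a was then at 0.65 in batch 2 (Hom against WT), and at 0.82 and 0.58 in batches 1 and 2 (Hom against Het), and Wnt4 at 0.77 and 1.04. In Hom against WT the count of family genes called higher was 1 in batch 1, 0 in batch 2 and 1 with a mean TPM of at least 5, where Wnt4 was not tested, and 2 without any 1 library. The count called lower was 2 after median-ratio scaling and 2 after quantile normalization (Sfrp4 and Fzd1), and 0 to 1 without single libraries; the cause was not tested. The exact Kruskal-Wallis test passed 4. In Hom against Het the count called higher was 0 in batch 1 and 0 in batch 2. Of the other pathway genes, those called higher numbered 2 with the endothelial term, 1 in batch 1, 0 in batch 2 and 2 to 4 without single libraries, and those called lower 0 to 2 without single libraries.

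The replicate numbers were not taken to pair the samples, though low correlations of residuals cannot exclude a pairing. With a replicate block the change in Hom was 0.81 for Wnt5a (limma adjusted p = 0.00582) and 0.87 for Wnt4 (0.0419), both still called. Of the other pathway genes, 2 were then called higher (Ccnd1 and Lef1), and Ror1 and Wls lost their calls. Another 2 were called lower (Apc2 and Porcn, named after their values were seen). Wls also lost its call in the fit of only the genotypes compared. The cause was not tested.

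The Sfrp2 batch difference was no longer called with a filter of TPM above 0 (0.39), median-ratio scaling (0.38), quantile normalization (0.38) or Het 3 in batch 2 (0.38), which left 0 genes called higher in batch 2, and ranged from 0.29 to 0.44 without single libraries, with 0 to 1 called. With the endothelial term 1 gene, Fzd6, was called lower in batch 2. Changes in Hom that were near 0 turned direction: Wnt7b in batch 2 (0.018) and without single libraries (-0.28 to 0.011), Dkk3 with the replicate block (0.015), in batch 1 (0.13) and without single libraries (-0.18 to 0.16), Fzd2 in batch 1 (-0.054), Lrp6 in batch 2 (-0.028) and with the endothelial term (-0.031), and Axin1 in batch 1 (0.12) and without single libraries (-0.13 to 0.0086). Fzd7 turned in batch 1 (0.27), and Fzd4 (-0.12) and Fzd6 (-0.065) with the endothelial term. The depth of each library is unknown, which limits what can be said of the 12 genes below 1 TPM everywhere.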
